A study of Mus musculus with 39 samples.

Results

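The 9 genes described here were listed for accessory structures of the sperm tail, the outer dense fibres and the fibrous sheath. Smcp and Oaz3 lie outside both, as given below. The genes are Odf1, Odf2, Odf3, Odf4, Akap3, Akap4, Fsip2, Smcp and Oaz3. They were chosen by symbol from the 32285 genes listed for the single-cell matrices, and each symbol matched 1 gene. The data are droplet single-cell RNA-seq of dissociated whole mouse testis, with 1 library from a control (Kdm6a fl/y; Cre-) and 1 from a conditional knockout (Kdm6a fl/y; Ddx4-Cre+, called Utx cKO in the labels). Both carry the floxed Kdm6a allele. Kdm6a is the X-linked gene of the histone demethylase UTX, which removes methyl groups from lysine 27 of histone H3, and Ddx4-Cre is driven by a gene expressed in germ cells, so the somatic cells of the testis are not its target. The labels give neither the age of the mice nor how many contributed to a library. With 1 library per genotype there is no replicate and no test: intervals below are exact 95% intervals that cover counting error only, and a difference between the libraries cannot be told apart from a difference between the genotypes.

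The sperm tail is a motile axoneme wrapped in structures that other cilia lack. Outer dense fibres are stiff rods along the axoneme, the fibrous sheath encloses them in the principal piece and anchors signalling and glycolytic enzymes, and a helix of mitochondria surrounds the midpiece. Their proteins are made during spermiogenesis, when chromatin is compacted by transition proteins and then protamines and transcription ends, so many of their messenger RNAs are stored for later translation. Odf1 and Odf2 encode core outer dense fibre proteins, and Odf2 is also known from the appendages of centrioles. Odf3 and Odf4 encode further tail proteins named after the fibres. Akap4 encodes the main fibrous sheath protein, an anchor for protein kinase A, Akap3 a related anchor, and Fsip2 a large protein of the same sheath. Smcp and Oaz3 are not part of either structure: SMCP is a cysteine-rich protein of the outer membranes of sperm mitochondria, and OAZ3 is the testis antizyme, which inhibits the first enzyme of polyamine synthesis. In the build GRCm38.p6, the outer dense fibre genes lie at chr15:38219203-38226735 (Odf1), chr2:29889014-29931746 (Odf2), chr7:140847916-140850925 (Odf3) and chr11:68921835-68927081 (Odf4). The fibrous sheath genes lie at chr6:126853098-126874308 (Akap3), chrX:7067515-7078609 (Akap4) and chr2:82943634-83008937 (Fsip2). Smcp lies at chr3:92583866-92589073 and Oaz3 at chr3:94433387-94436651.

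Cells were taken as barcodes with at least 3000 UMIs (unique molecular identifiers, 1 per captured RNA molecule), which gave 11252 control cells with a median of 8410.5 UMIs and 8520 cKO cells with a median of 8499. They shared 30 barcodes. Cells were assigned to the class whose fixed marker genes scored highest, and 11.7% of control cells and 10.9% of cKO cells were left without a class because no class led clearly. Of the cells in the 5 germ-cell classes, 3.14% to 8.69% lay near the limit of that lead. The control library held 187 spermatogonia-like, 666 early spermatocyte-like, 2160 late spermatocyte-like, 1964 round spermatid-like and 4593 elongating spermatid-like cells, and the cKO library 164, 212, 1657, 1863 and 3378. Kdm6a, the targeted gene, had 304 UMIs in control cells and 75 in cKO cells, a log2 ratio of -1.60 (-1.98 to -1.23). In early spermatocyte-like cells, where its level was highest in the control, it had 152 UMIs in the control and 8 in the cKO. Spermatogonia-like cells held 22 and 10 Kdm6a UMIs, a log2 ratio of -0.77 (-2.01 to 0.37). Of the somatic cells, Leydig-like cells held 12 and 7 (-0.59, -2.18 to 0.87) and Sertoli-like cells 18 and 22 (0.61, -0.35 to 1.60), with intervals that include 0. The labels do not say whether the counted 3′ end lies in the deleted part.

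Droplets without a cell held much RNA in both libraries, and that RNA contained these genes. The empty-droplet peak lay at 1325 UMIs in the control and 825 in the cKO, and a droplet in its range held on average 1335 and 820.6 UMIs. Such RNA would amount to 15.9% of the UMIs of elongating spermatid-like cells in the control and 10.7% in the cKO, and to 22.3% and 12.6% in early spermatocyte-like cells. Leydig cells, the steroid-producing cells between the tubules, should not express sperm tail genes, so the UMIs of the 101 control and 102 cKO Leydig-like cells were used as the comparison level, called background below. Their median depth was 8173 and 6747.5 UMIs. They carried 9.91 and 7.28 Smcp UMIs per cell, 7.71 and 5.99 of Odf2, and 2.92 and 1.45 of Akap4. This level was itself above that of an empty droplet, by 2.97 times in the control and 3.95 times in the cKO for Akap4 and by 2.23 and 3.88 times for Smcp. What the Leydig-like cells hold beyond free RNA was not tested, so a count at background is not shown to be free RNA alone.

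Promoter sequence was at hand for 7 members, and 5 are shown because they share a word or differ in CpG content and open chromatin. The first group holds the word TGATGTCA, a variant of the cyclic-AMP response element TGACGTCA. RefSeq promoters (GRCm38.p6, the build mm10) run from 250 bases before to 50 bases after the gene start. For Akap3 (chr6:126852848-126853097, + strand) and Akap4 (chrX:7067265-7067514, + strand) the 250 bases before the start are printed, and for Smcp (chr3:92589031-92589060, - strand) the 30 bases around the word, which begins 25 bases after the start. Capitals mark TGATGTCA, and the capital at the end of the Akap3 line is the first base of another copy that crosses the start.
Akap3: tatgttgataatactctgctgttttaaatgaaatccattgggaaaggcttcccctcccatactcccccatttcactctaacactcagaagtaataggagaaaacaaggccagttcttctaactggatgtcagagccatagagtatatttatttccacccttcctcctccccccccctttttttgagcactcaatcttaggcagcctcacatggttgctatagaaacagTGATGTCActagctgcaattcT
Akap4: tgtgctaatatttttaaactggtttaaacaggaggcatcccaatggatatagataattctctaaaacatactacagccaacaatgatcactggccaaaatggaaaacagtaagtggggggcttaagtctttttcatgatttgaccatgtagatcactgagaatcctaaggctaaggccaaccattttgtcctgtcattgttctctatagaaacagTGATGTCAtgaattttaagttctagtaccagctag
Smcp: ggagagtattaTGATGTCAtaaaagagctg

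Akap3 and Akap4 shared a run of 20 bases, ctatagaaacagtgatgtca, that ends with this word. It began 34 bases before the start of Akap3 and 47 bases before that of Akap4. Of the 32851 promoters in the table, 2 hold the run on either strand, these 2. TGATGTCA itself, searched on both strands, was found in 3 of the 7 members with a promoter in the table and in 4.18% of 27025 genes. The word and the run were picked after the sequences were seen. The promoters of Akap3, Smcp and the first start of Akap4 had 0 CpG dinucleotides in 300 bases, against a median of 7 over all promoters. Their GC content was 45.3%, 38.0% and 38.3%, with a median of 52.7% over all promoters.

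The second pair are Odf2 (chr2:29889470-29889719, + strand, the first of its 4 starts in the table) and Fsip2 (chr2:82943384-82943633, + strand), the members whose promoter holds TGACG. Like Odf4, whose promoter lacks it, both were above background in late spermatocytes. Capitals mark TGACG or its reverse complement CGTCA, the core of the same element.
Odf2: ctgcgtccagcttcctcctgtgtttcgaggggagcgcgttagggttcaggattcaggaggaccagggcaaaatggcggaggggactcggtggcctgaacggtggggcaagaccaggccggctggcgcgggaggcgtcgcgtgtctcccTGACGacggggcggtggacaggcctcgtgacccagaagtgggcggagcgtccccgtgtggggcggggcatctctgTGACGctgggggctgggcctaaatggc
Fsip2: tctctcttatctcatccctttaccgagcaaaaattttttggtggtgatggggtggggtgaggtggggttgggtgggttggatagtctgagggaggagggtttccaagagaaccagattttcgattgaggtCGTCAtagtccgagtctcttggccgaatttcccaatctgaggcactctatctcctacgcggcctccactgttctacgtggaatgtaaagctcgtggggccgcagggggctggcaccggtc

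Odf2 and Fsip2 were the 2 of 7 members with TGACG, which 23.0% of genes hold. Neither the full element TGACGTCA, present in 2.03% of genes, nor the word TATAAA, present in 15.7%, was found in the 7 members. The Odf2 promoters had 26 to 43 CpG and the Fsip2 promoter 14. Odf3 (2 CpG), Odf4 (3) and the second start of Akap4 (1) were CpG-poor. Oaz3 and Odf1 were not matched in the table. A match to a word is a description of the letters and not evidence of binding.

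Peak lists from sorted cKIT+ spermatogonia (Kdm6a fl/y; Cre- or Ddx4-Cre+) showed open chromatin at the Odf2 promoter. ATAC-seq, which marks open chromatin, had a peak over it in each of 2 control and 3 cKO libraries, with the authors' fold enrichment between 4.29 and 5.27. No other member with a promoter in the table had a peak there in any of the 5 libraries, where 25.6% to 43.6% of all genes did. Within the genes, 1 or 2 of 9 members held a peak per ATAC-seq library, where 42.4% to 69.2% of all genes did. Beside Odf2 in each library, a peak lay in Akap4 (chrX:7071449-7071801) in 1 of 2 control libraries and just past the Fsip2 start (chr2:82943685-82943895) in 1 of 3 cKO libraries. H3K27me3, the mark that UTX removes, was called by CUT&Tag within Akap3 in both control libraries and in 2 of 3 cKO libraries, where 13.6% to 22.1% of all genes held a region. It overlapped the Akap3 promoter in 1 cKO library, while 5.37% to 12.6% of all gene promoters were overlapped per H3K27me3 library. None of the other 8 members had an H3K27me3 region in the gene, and the IgG library had none in any member. Replicates of these assays were called separately and their depth is unknown, and whether a missing peak follows depth was not tested.

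Fsip2 was the earliest gene of the fibrous sheath group. In the control it stood at 641 CPM (the gene's UMIs as parts of 1e6 of the summed UMIs of the class) in late spermatocyte-like cells and 642 in round spermatid-like cells, and at 109 in elongating spermatid-like cells. The cKO held 364, 387 and 55.6 CPM in the same classes. All 3 classes were lower in the cKO, and the intervals of the libraries did not meet. The log2 ratio of cKO to control was -0.81 (-0.85 to -0.78) in late spermatocytes, -0.73 (-0.76 to -0.70) in round spermatids and -0.97 (-1.05 to -0.88) in elongating spermatids. Per cell, late spermatocyte-like cells held 13.7 UMIs in the control and 6.87 in the cKO, against 1.29 and 0.627 in Leydig-like cells, so most of the signal there was above background. In elongating spermatid-like cells the count per cell was 0.914 and 0.427, below the Leydig-like level and 1.37 and 1.57 times that of an empty droplet, so the ratio in that class compares counts under background.

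Akap4 was low in spermatocytes and high in spermatids. Control levels were 117 CPM in late spermatocytes, 614 in round spermatids and 2055 in elongating spermatids. The corresponding cKO levels were 76.2, 419 and 1389 CPM. Late spermatocyte-like cells held 2.50 UMIs per cell in the control, no more than the 2.92 of Leydig-like cells, and 1.44 against 1.45 in the cKO, so Akap4 was not above the Leydig-like level there. It was 2.54 times the level of an empty droplet in the control and 3.92 times in the cKO. In the spermatid classes it was well above it, with 17.3 UMIs per elongating spermatid-like cell in the control and 10.7 in the cKO. The log2 ratio was -0.55 (-0.58 to -0.52) in round and -0.56 (-0.58 to -0.55) in elongating spermatids, a fold of 1.47 and 1.48 in favour of the control, just inside the 1.5-fold limit used here. In elongating spermatids it was past that limit when bins of spermatids were weighted equally (-0.63) or empty-droplet RNA was subtracted (-0.62), both described below. In round spermatids the ratio was -0.32 with the bins weighted equally. The 5 markers of elongating spermatids were also lower in cKO round spermatid-like cells, with 17031 CPM in sum against 23594 in the control, and their part in the ratios of that class was not tested.

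Akap3, the other anchor, peaked earlier than Akap4. It stood at 395 CPM in round and 391 in elongating spermatid-like cells of the control, and at 324 and 272 in the cKO. The log2 ratios were -0.28 (-0.32 to -0.25) in round and -0.52 (-0.56 to -0.48) in elongating spermatids, the latter -0.21 when bins of spermatids, described below, were weighted equally. Akap3 in late spermatocyte-like cells was below background in the control, with 1.08 UMIs per cell against 1.27 in Leydig-like cells. In the cKO it was above it per cell, with 0.775 against 0.431, the latter from 44 UMIs. Late spermatocyte-like cells of the cKO were deeper, with a median of 16505 UMIs against 6747.5. As CPM, Akap3 was below the Leydig-like level in both libraries, 50.5 against 138 in the control and 41.1 against 53.8 in the cKO.

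**Figure D1:**
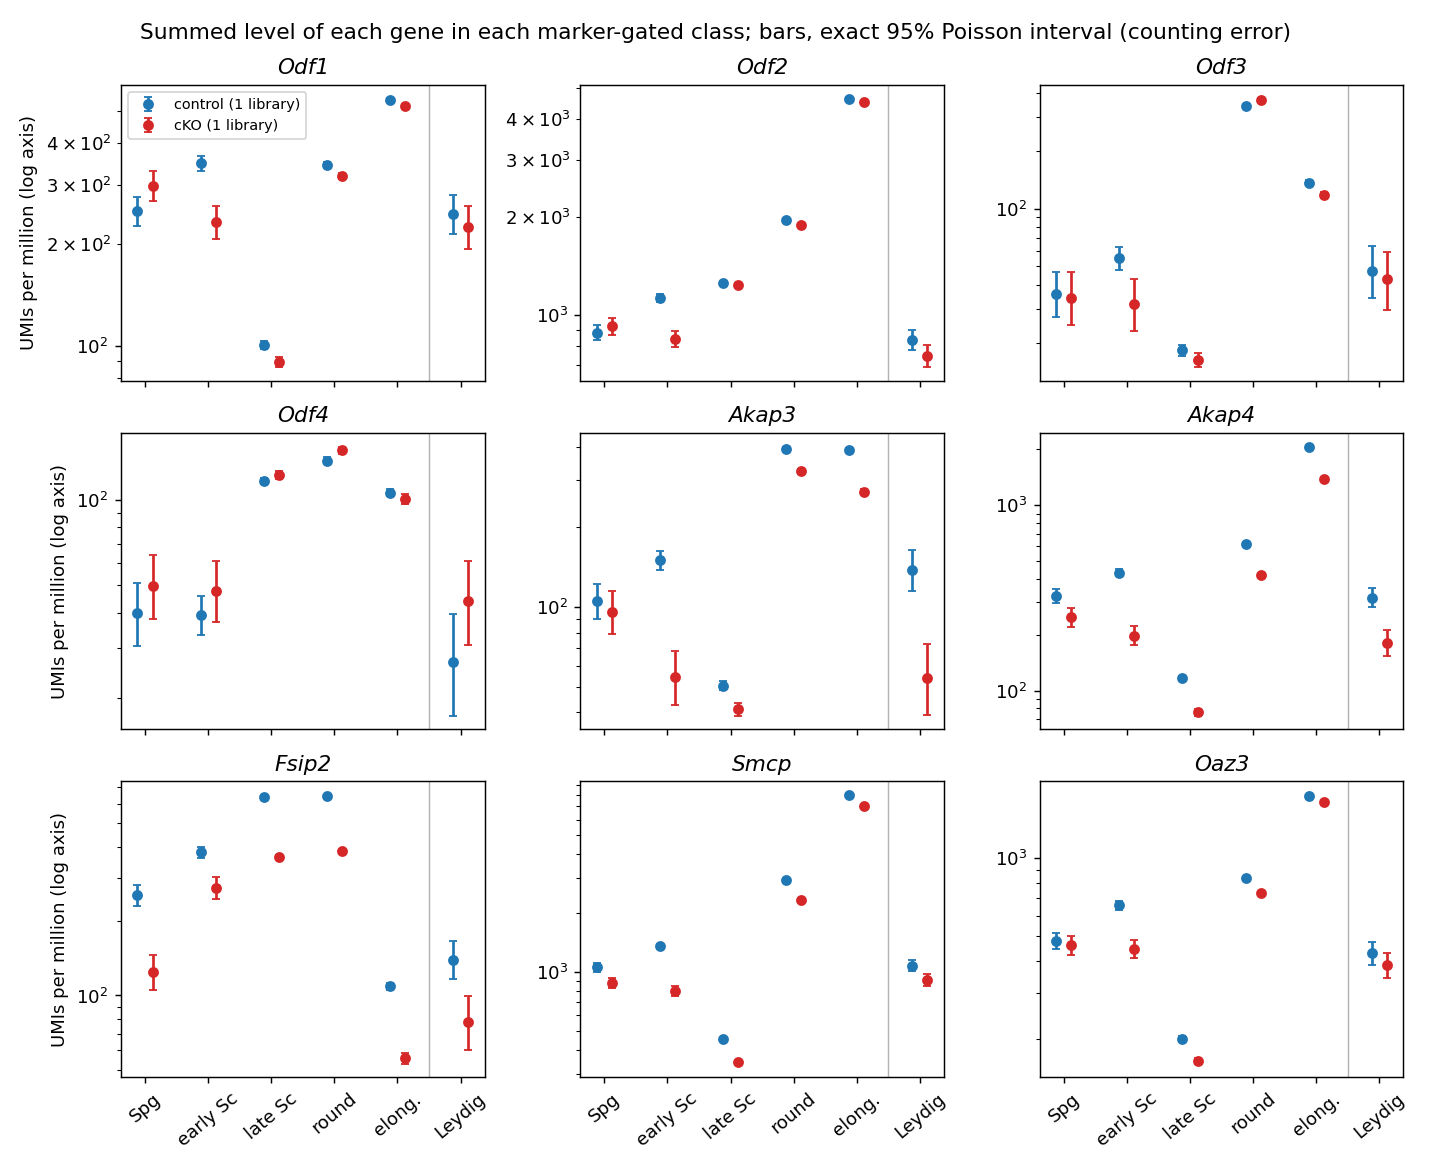
Level of each of the 9 genes in CPM (log axis) in 5 germ-cell classes and Leydig-like cells, in order spermatogonia-like (Spg), early and late spermatocyte-like (Sc), round and elongating spermatid-like; points are the control and cKO libraries, bars the exact 95% Poisson interval. Fsip2 is highest in late spermatocyte-like and round spermatid-like cells, Odf3 in round spermatid-like cells, and Odf1, Odf2, Akap4, Smcp and Oaz3 in elongating spermatid-like cells.

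Among the outer dense fibre genes, Odf2 was the most widely detected across germ-cell classes. Its control level was 1254 CPM in late spermatocytes, 1960 in round spermatids and 4617 in elongating spermatids, and the cKO level 1237, 1893 and 4536. The libraries differed little in these 3 classes, with log2 ratios of -0.02 (-0.04 to -0.001), -0.05 (-0.07 to -0.03) and -0.03 (-0.04 to -0.02). Late spermatocyte-like cells held 26.8 Odf2 UMIs per cell against 7.71 in control Leydig-like cells, so this gene was above background in late spermatocytes. In early spermatocyte-like cells it was under it, with 6.74 against 7.71 in the control and 5.47 against 5.99 in the cKO.

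Odf1 reached 344 CPM in round and 537 in elongating spermatid-like cells of the control, and 319 and 516 in the cKO. It was at background in late spermatocyte-like cells, with 2.14 UMIs per cell against 2.27 in Leydig-like cells. Its ratios in the spermatid classes were -0.11 (-0.15 to -0.07) and -0.06 (-0.09 to -0.03) on the log2 scale. The median log2 ratio of all genes was -0.01 in round and -0.10 in elongating spermatid-like cells. In the elongating class Odf1, Odf2, Odf4 (-0.08) and Oaz3 (-0.08) lay above that median and the other members below it. Odf1 kept its sign there in 10 of 12 alternatives (-0.08 to 0.04).

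Odf3 belonged to round spermatids, with 340 CPM in the control and 367 in the cKO, a log2 ratio of 0.11 (0.07 to 0.15). In elongating spermatid-like cells it was 136 and 118 CPM, with a log2 ratio of -0.21 (-0.27 to -0.14), which turned to 0.16 when the bins of spermatids described below were weighted equally. Odf4 was above background from late spermatocytes on, with 2.48 UMIs per cell against 0.248 in Leydig-like cells of the control. It was 116, 138 and 106 CPM in late spermatocytes, round and elongating spermatids of the control and 123, 150 and 101 CPM in the cKO, so its order over classes was the same in both libraries, and the largest of the 3 log2 ratios was 0.12 (0.06 to 0.18).

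Smcp and Oaz3, the genes outside both structures, were highest in elongating spermatid-like cells like Odf1, Odf2 and Akap4. Smcp stood at 7996 CPM there in the control and 7060 in the cKO, with 2942 and 2330 in round spermatids. Its log2 ratio was -0.18 (-0.19 to -0.17) in elongating and -0.34 (-0.35 to -0.32) in round spermatids. Oaz3 was at 1746 and 1646 CPM in elongating and 839 and 731 in round spermatid-like cells, with ratios of -0.08 (-0.10 to -0.07) and -0.20 (-0.23 to -0.17). With the bins weighted equally, the ratios in round spermatids, where the markers of elongating spermatids were lower in the cKO as given above, were -0.13 for Smcp and -0.04 for Oaz3. In elongating spermatids both turned to 0.01 at a minimum of 1000 UMIs, and Oaz3 also with the scale set by the median ratio of all genes. In late spermatocyte-like cells both were at the Leydig-like level, 9.68 against 9.91 UMIs per cell for Smcp and 4.27 against 3.94 for Oaz3 in the control.

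The share of cells with a UMI was also high in Leydig-like cells for some members. With every cell thinned to 3000 UMIs, which left out no cell, Odf2 and Smcp were found in 100% of elongating spermatid-like cells of both libraries. In Leydig-like cells they were found in 80.2% of control cells, so their share alone would not separate the classes. Akap4 was found in 99.0% and 96.4% of elongating spermatid-like cells (99.7% and 99.3% unthinned) against 40.6% and 22.5% of Leydig-like cells. Fsip2 was found in 81.5% of control and 63.7% of cKO late spermatocyte-like cells (96.7% and 94.6% unthinned) against 26.7% and 18.6% of Leydig-like cells. In elongating spermatid-like cells the share for Fsip2 was 28.8% and 15.8%, close to or below that of Leydig-like cells.

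To order the genes within spermatids, the round and elongating spermatid-like cells were divided into 8 bins, equal in size over both libraries together, by the share of UMIs in Prm1, Prm2, Prm3, Tnp1 and Tnp2, the protamine and transition protein genes, which include no member. The median share was 0.56% in bin 1 and 26.2% in bin 8 of the control. The libraries filled the bins unevenly: bins 3 to 5 held 1034, 1035 and 960 control cells and 440, 440 and 515 cKO cells, and in bin 3 the median depth was 5205.5 UMIs in the control and 13331 in the cKO. Bins are ranges of a score and not cell types.

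Fsip2 was highest in bin 1 of both libraries, at 781 CPM in the control and 444 in the cKO, and lowest in bin 8, 11.6-fold lower in the control and 11.5-fold lower in the cKO. From bin 4 on its level was under that of Leydig-like cells, 139.8 and 78.2 CPM, in both libraries. Odf3 was highest in bin 2, at 402 and 506 CPM, and lowest in bin 8, at 27.2 and 21.9 CPM. Akap3 was highest in bin 5, at 616 and 476 CPM, and ended at 72.8 and 54.4 CPM. Akap4, Odf2, Smcp, Oaz3 and Odf1 were low in bin 1 and within a narrower range from bin 4 on. Akap4 went from 334 CPM in bin 1 to 1795 in bin 4 and 2318 in bin 7 of the control, and from 280 to 1277 and 1468 in the cKO. Odf4 spanned the smallest range of folds over the bins, between 96.8 and 157 CPM in the control and between 87.2 and 161 in the cKO.

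**Figure D2:**
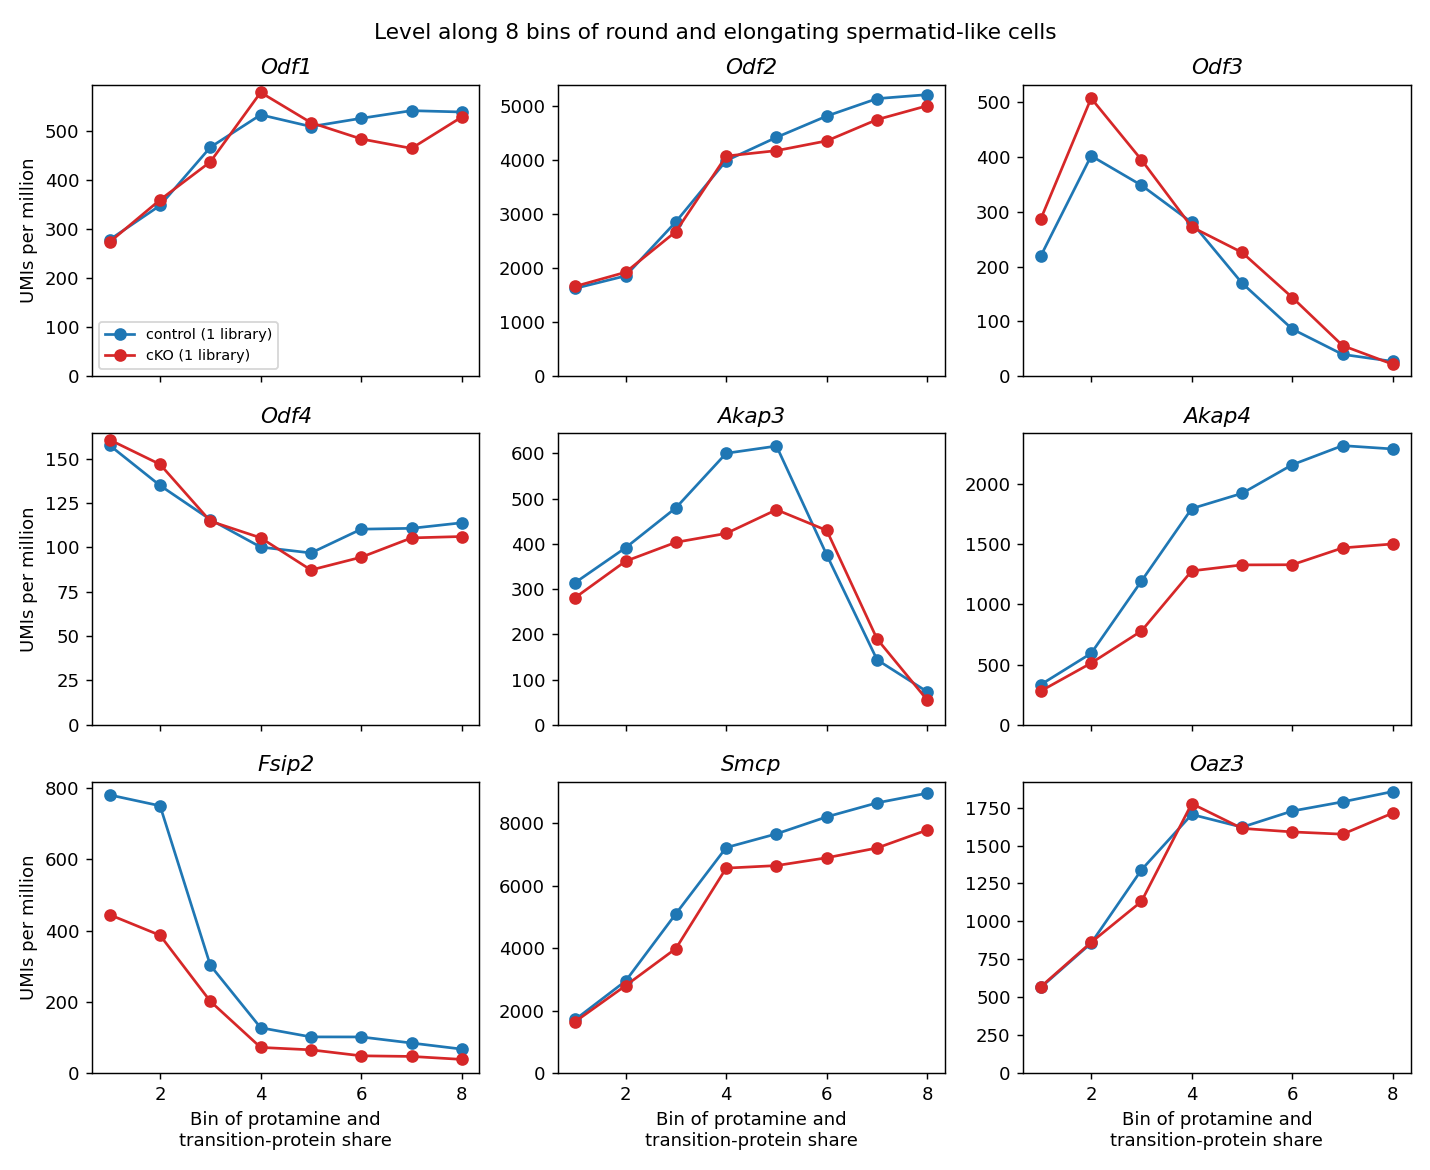
Level of each gene in CPM (linear axis from 0) over 8 bins of round and elongating spermatid-like cells, ordered by their protamine and transition protein share; lines join the control and the cKO library. The order of peaks is the same in both libraries for Fsip2 (bin 1), Odf3 (bin 2) and Akap3 (bin 5), and Fsip2 and Akap4 are lower in the cKO in all 8 bins, with Fsip2 under the Leydig-like level from bin 4 on.

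Within bins, 3 of 9 members, Fsip2, Akap4 and Smcp, were lower in the cKO throughout. Of all genes with at least 100 UMIs in the bins together 7.21% were lower in all 8, and of those with at least 100 in every bin 14.4%. Fsip2 had log2 ratios of -0.81, -0.96 and -0.59 in bins 1 to 3, where it was above background. In bins 4 to 8 the ratios, -1.06 to -0.64, compare counts under background. Akap4 was lower in 8 of 8 bins, from -0.70 to -0.21, and Smcp in 8 of 8, from -0.36 to -0.06. For Akap4 the difference was smallest in bins 1 and 2, at -0.25 and -0.21, and at least 0.49 in size in bins 3 to 8. Bins 1 and 2 held only round spermatid-like cells, which were also 53.3% of control and 71.6% of cKO cells in bin 3. In some of the later bins Odf3 and Akap3 did not keep the sign they had in the whole elongating class. Odf3 was higher in the cKO in 6 of 8 bins, among them bins 1 to 3. Past these it was higher by 0.41 (0.28 to 0.54) in bin 5 and 0.74 (0.58 to 0.90) in bin 6. It was higher by 0.49 (0.24 to 0.73) in bin 7, and was at -0.04 (-0.16 to 0.07) in bin 4. In bin 7 the control held 0.351 Odf3 UMIs per cell, under its Leydig-like level of 0.436, and in bin 8 both libraries were under it. Akap3 was lower in bins 1 to 5, by up to -0.50 (-0.59 to -0.42) in bin 4, higher in bins 6 and 7, by 0.19 (0.11 to 0.28) and 0.40 (0.27 to 0.53), and lower in bin 8 (-0.42, -0.62 to -0.22). In bins 7 and 8 the control held 1.26 and 0.787 Akap3 UMIs per cell against 1.27 in Leydig-like cells, so these ratios rest on control counts not above background. In bin 8 Odf3 was at -0.31 (-0.64 to 0.01). With each bin given equal weight, the ratio in the elongating class was 0.16 for Odf3 and -0.21 for Akap3, against -0.21 and -0.52 without it. The part of depth and of the uneven filling of bins in these differences was not tested further.

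Fewer cells of a class and less RNA per cell cannot be told apart in sums over all cells. Over all cells, Fsip2 had 453 CPM in the control and 274 in the cKO, a log2 ratio of -0.72 (-0.74 to -0.70). Akap4 had 891 and 571 CPM, a ratio of -0.64 (-0.66 to -0.63). These 2 of 9 members were lower by over 1.5-fold, where 4.02% of the 17285 genes with at least 100 UMIs were. With a minimum of 1000 UMIs, which admits the empty droplets of the control, Akap4 was at -0.58, inside the limit. None was higher by over 1.5-fold, with 1.38% of all genes higher. The median log2 ratio of the 9 members was -0.18 and that of all genes -0.02. The other 7 members lay between -0.33 (Akap3) and 0.21 (Odf3).

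By class, Fsip2 was the member lower by over 1.5-fold in round spermatid-like cells (1 of 9, against 6.85% of genes) and in elongating spermatid-like cells (1 of 9, against 5.59%), where its counts were at background. In late spermatocyte-like cells 2 of 9 passed this limit, Fsip2 and Akap4, against 3.81% of genes, but Akap4 there was at background, as given above. The count was 6 at a minimum of 1000 UMIs, for which the share of all genes was not computed. In spermatogonia-like cells Fsip2 was the 1 of 8 members tested, against 6.75% of genes. Past the limit in either direction were 5 members without doublets and 4 with free RNA subtracted. The share of all genes past it was not computed for these alternatives. Fsip2 had 402 UMIs in 187 control cells and 152 in 164 cKO cells. That is 2.15 and 0.927 UMIs per cell, against 1.29 and 0.627 in Leydig-like cells. Akap3 in this class had 0.888 UMIs per cell against 1.27 in Leydig-like cells of the control, but 0.713 against 0.431 in the cKO. Akap4 had 2.74 against 2.92 in the control and 1.85 against 1.45 in the cKO. Higher by over 1.5-fold were 0 members in each of the 5 germ-cell classes, where 0.775%, 2.06%, 0.606%, 0.769% and 0.46% of genes were higher, from spermatogonia to elongating spermatids. With other processing, given at the end, some passed it as higher in spermatogonia-like cells. They were Odf1 (up to 1.24), Odf3 (0.63), Odf4 (0.73), Akap3 (4.42) and Oaz3 (1.56). The value of Akap3 is with free RNA subtracted, which left almost none of its UMIs in control cells of this class. That step took 4599 UMIs, at 191 Akap3 CPM, from control cells that held 0.888 Akap3 UMIs each. As lower, Odf3, Akap4, Smcp and Oaz3 passed the limit in spermatogonia-like cells in at least 1 alternative, and Fsip2 in 11 of 11. Odf4 reached 1.00 in early spermatocyte-like cells. In early spermatocyte-like cells 4 of 9 were lower (Akap3, Akap4, Odf3 and Smcp), against 10.8% of genes. Their UMIs per cell were under the Leydig-like level in both libraries, such as 2.59 of Akap4 in the control and 1.29 in the cKO. The markers of elongating spermatids were lower in this class too, with 15456 CPM in sum in the cKO against 22414 in the control. Their part in these ratios was not tested. In the cluster named early spermatocyte-like, with 505 control and 135 cKO cells, none passed the limit: the ratios were -0.22 for Akap3, -0.38 for Akap4, 0.35 for Odf3 and -0.04 for Smcp.

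**Figure D3:**
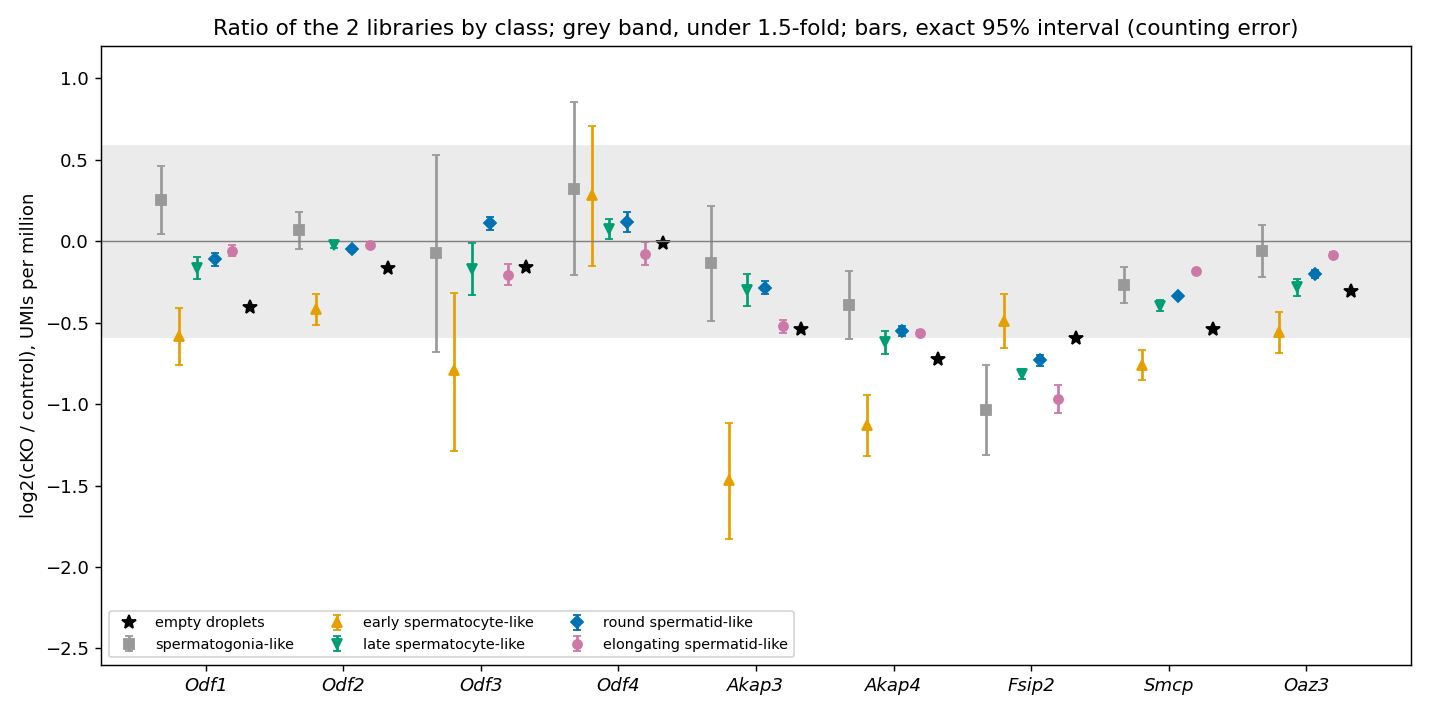
Log2 ratio of cKO to control for each gene in 5 germ-cell classes and in empty droplets; bars are exact 95% intervals for counting error and the grey band marks ratios under 1.5-fold. Fsip2 lies below the band in 4 of 5 germ-cell classes, and in early spermatocyte-like cells Akap3, Akap4, Odf3 and Smcp lie below it.

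In somatic cells, which Ddx4-Cre does not target, Fsip2, Akap4, Akap3 and Smcp were lower in the cKO library in both larger classes. The other members depended on the class, and the ratios on how cells were grouped. These cells also held the 5 markers of elongating spermatids. The markers summed to 57346 CPM in control and 48771 in cKO Sertoli-like cells, and to 21583 and 17787 in Leydig-like cells. What part of the ratios comes from germ-cell RNA in these cells was not tested. In Leydig-like cells the log2 ratio was -0.84 (-1.29 to -0.40) for Fsip2, -0.81 (-1.11 to -0.52) for Akap4, -1.36 (-1.88 to -0.85) for Akap3 and -0.25 (-0.38 to -0.11) for Smcp. Odf2 was at -0.17 (-0.32 to -0.01). The intervals of Odf1, Odf3, Odf4 and Oaz3 there included 0, with Odf4 at 0.71 (-0.07 to 1.51). In the cluster named Leydig-like, with 120 control and 106 cKO cells, Fsip2 was at -0.75 (-1.15 to -0.36). Akap4 was at -1.16 in that cluster, Akap3 at -1.53, Smcp at -0.81, Oaz3 at -0.67, Odf1 at -0.63 and Odf2 at -0.45. The intervals of Odf3 (-0.47) and Odf4 (0.30) included 0. In Sertoli-like cells the ratio was -1.16 (-1.38 to -0.94) for Fsip2, -0.77 (-0.90 to -0.63) for Akap4, -0.72 (-0.98 to -0.46) for Akap3 and -0.69 (-0.76 to -0.63) for Smcp. Odf1 (-0.32), Odf2 (-0.28), Odf4 (-0.64) and Oaz3 (-0.48) were lower too, and the interval of Odf3 included 0. The markers of elongating spermatids had a median of 209 UMIs per 10000 in control and 95.9 in cKO cells of this class. Its Sertoli markers summed to 3888 and 5414 CPM. In the cluster named Sertoli-like, with 106 control and 163 cKO cells, Fsip2 was at -1.19 (-1.47 to -0.92), but Akap4 was at -0.13 (-0.36 to 0.09), Smcp at -0.01 (-0.12 to 0.10) and Akap3 at -0.37 (-0.74 to -0.01). The intervals of the other members in that cluster included 0. The few macrophage-like cells, 24 and 12, gave -0.94 (-1.69 to -0.26) for Fsip2 and higher values in the cKO for Smcp (0.34, 0.09 to 0.58), Oaz3 (0.69, 0.30 to 1.08) and Odf1 (0.60, 0.06 to 1.13). Whether these ratios differ from those of germ-cell classes was not tested.

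The empty droplets of the 2 libraries differed in most members too. On the CPM scale, free RNA of the cKO held less Akap4 (-0.72), Fsip2 (-0.60), Smcp (-0.54), Akap3 (-0.54), Odf1 (-0.40) and Oaz3 (-0.31) than that of the control. Odf2 and Odf3 were at -0.16 and Odf4 at -0.01. Odf1 thus differed more in empty droplets than over all cells (-0.11). Prm1 was at -0.23 and Tnp2 at -0.39 in the same droplets. After the mean content of an empty droplet was subtracted from every cell, Fsip2 was at -0.83 in late spermatocytes and -0.75 in round spermatids, and Akap4 at -0.53 in round and -0.62 in elongating spermatids. In late spermatocytes, where it is at background, Akap4 went from -0.62 to -0.35.

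The 22 clusters, found from the most variable genes with these 9 left out, gave a further view that uses no class. In the 21 clusters with at least 50 cells of both libraries, Fsip2 was lower in the cKO in 21, by over 1.5-fold in 20, with a median log2 ratio of -0.85. In those named elongating spermatid-like its level was at most 138.5 CPM in the control and 64.0 in the cKO. Leydig-like cells held 139.8 and 78.2 CPM. An unnamed cluster held 545 Fsip2 UMIs in 642 control cells and 182 in 394 cKO cells. Another held 565 in 517 and 175 in 287. Per cell these counts were under the Leydig-like level too. These clusters and the one named Leydig-like are among the 20, and their ratios compare counts at or under background. Of all genes with at least 100 UMIs in the clusters together 0.0638% were past 1.5-fold lower in at least 20, and 0.1% of those with at least 100 in every cluster. Akap4 was lower in 21, by over 1.5-fold in 6, with a median of -0.45. Among the 6 were the cluster named Leydig-like, a late spermatocyte-like cluster and an unnamed cluster. The latter 2 held 870 UMIs in 565 and 727 in 297 control cells, and 352 in 398 and 238 in 232 cKO cells. Per cell both were under the Leydig-like level in both libraries. At least 6 clusters past the limit were found for 35.2% and 3.85% of those genes. The cut-offs of 20 and 6 clusters were set at the counts of Fsip2 and Akap4 themselves, and were not chosen in advance. Akap3 and Smcp were also lower in 21 of 21, with medians of -0.37 and -0.21. Lower in 21 of 21 were thus 4 of 9 members, against 2.76% of genes, or 8.8% of those with at least 100 UMIs in every cluster, where Odf4 was not among the genes tested. Odf2 was lower in 11 and higher in 10, and Odf3 and Odf4 were higher in 13 and 14. The clusters share 2 libraries and their free RNA, and include Leydig-like and other somatic cells, so they are not replicates.

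**Figure D4:**
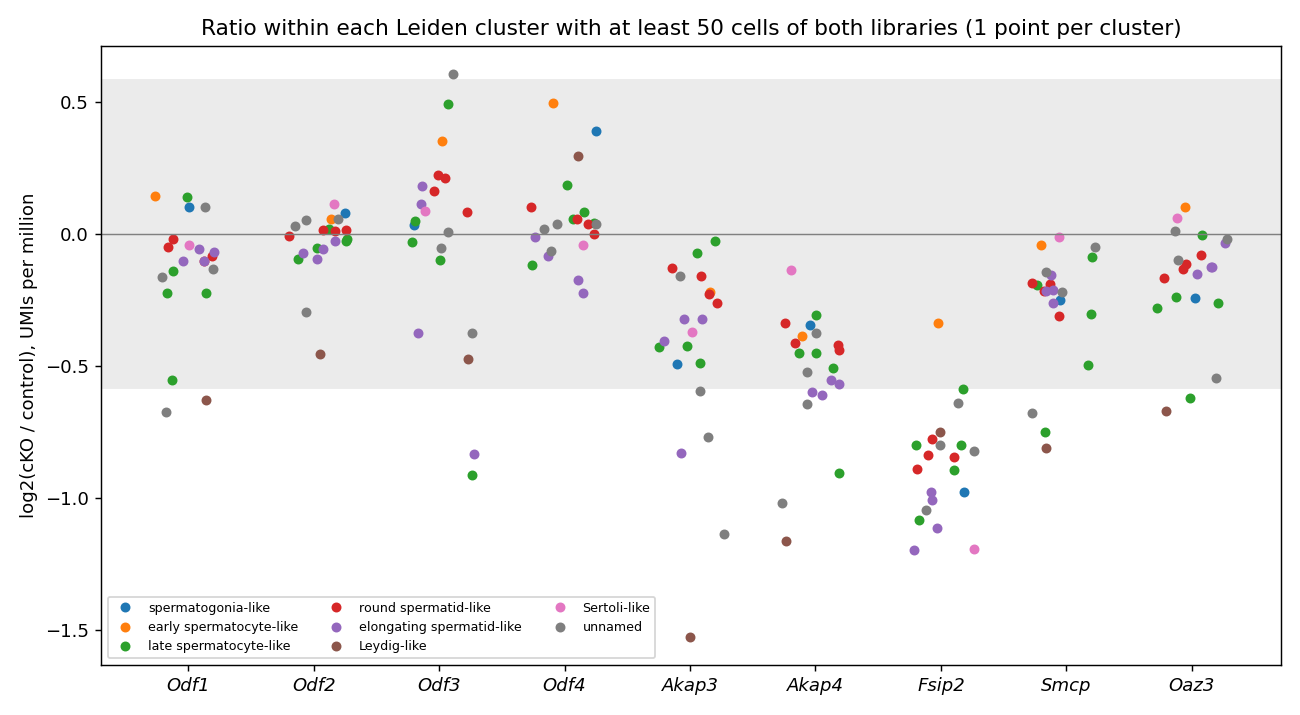
Log2 ratio of cKO to control for each gene within each of 21 clusters (1 point per cluster, coloured by its name where it has one; sideways spread is only for legibility). All points of Fsip2, Akap4, Akap3 and Smcp lie below 0, and those of Odf2 lie on both sides of it.

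The likeness of the members' levels was described over 34 points, 9 classes and 8 bins in each library, which share cells and depth. The macrophage-like class (24 and 12 cells) and the myoid or endothelial-like class (1 and 5 cells) are thin, so each r is also given over the 30 points without them, an addition made after the data were seen. On log2(CPM + 1), Akap4, Smcp and Oaz3 had Pearson r between 0.946 and 0.975 with each other, and between 0.982 and 0.990 without the thin classes. Odf3 and Akap3 had r = 0.931 with each other (0.896 without), and Akap3 and Odf4 0.736 (0.424 without). Fsip2 had a negative r with Akap4, -0.593 (-0.600 without), and lay near 0 with Akap3, -0.087 (0.024 without). Of 10651 genes that are neither members nor markers, 3 were among the 2 most alike for the same member in both sets of points. They were 4921536K21Rik for Odf2 (0.955, and 0.989 without the thin classes), Trim36 for Akap3 (0.985 and 0.972) and Spz1 for Smcp (0.990 and 0.997). For Odf1, Odf3, Odf4, Akap4, Fsip2 and Oaz3 both most alike genes were other genes without the thin classes, and none is named. These are descriptions across points that are not independent.

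Further genes of the same structures were taken from a chosen list. Over all cells, of 18 further outer dense fibre and fibrous sheath genes, 17 had enough UMIs. Of these 0 were lower or higher by over 1.5-fold (4.02% and 1.38% of all genes), with a median log2 ratio of 0.05. The 4 with the most UMIs were Ropn1l (0.10), Spa17 (-0.08) and Gapdhs (-0.12), which encode fibrous sheath proteins, the last a glycolytic enzyme of sperm, and Tcp11 (0.13). Of 7 mitochondrial sheath genes 0 passed the limit, with a median of 0.11. Among them Gpx4, which encodes a selenoprotein of the mitochondrial capsule, was at 0.09, Spata19 at -0.02, Vdac3 at 0.15 and Gykl1 at 0.23. Of 8 polyamine and antizyme genes 0 passed it, with a median of -0.01. Odc1, the target of antizymes, was at -0.01, and Oaz1, the antizyme of most tissues, at -0.0046, Azin2 at 0.05 and Oaz2 at 0.02. In elongating spermatid-like cells the first list had a median of -0.17, against -0.18 for the 9 members. In round spermatid-like cells its median was 0.02, against -0.20 for the members. In late spermatocyte-like cells 1 of 17 of the first list was lower by over 1.5-fold (3.81% of all genes), Odf3b, with 210 and 89 UMIs. In early spermatocyte-like cells 4 of 15 were (Ropn1, Cabyr, Gapdhs and Aldoart1) and 2 of 7 mitochondrial sheath genes (Spata19 and Armc12), where 10.8% of all genes were, beside the free-RNA shares given for that class. Odf3b, Ropn1, Cabyr, Aldoart1 and Armc12 were named after their values were seen.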

How the data were processed

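The authors deposited single-cell UMI counts per gene and barcode, with no cells selected. Per the file headers they come from Cell Ranger 4, and the submitters' processing notes name Cell Ranger, Seurat 4.1.0 and the build mm10. The authors' ATAC-seq lists of cKIT+ spermatogonia, deposited per library, give a fold enrichment (a ratio) per peak. The authors' CUT&Tag lists, also deposited per library, give a signal per region, whose scaling the sources used here do not state, so only overlap was used. The submitters' processing notes name Bowtie2, MACS2 and SEACR.

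Barcodes with at least 3000 UMIs were kept, with no further filter and doublets kept. Library totals were 229882646 UMIs in the control, 57.8% of them in kept barcodes, and 172368722 in the cKO, 57.5% in kept barcodes. Marker genes of 9 cell types were z-scored on log-normalised UMIs, and a cell took the type with the highest mean score if it led by at least 0.1 and at least 3 markers were detected. UMIs were summed per library and class and divided by the class total (CPM). CPM has an exact Poisson interval and the log2 ratio of libraries an exact conditional binomial (Clopper-Pearson) interval. A gene counted as lower or higher past 1.5-fold, and genes with at least 100 UMIs in both libraries together formed the background. Ratios and intervals were tested on simulated data. Doublets were marked with Scrublet in scanpy 1.11.5 (5.49% of control and 6.27% of cKO cells) and clusters made with leidenalg 0.10.2, for alternatives and the view by cluster. A cluster was named by its marker scores where at least 50% of its cells lay in that class. Promoters overlapped a peak from 1 base on. Python 3.11.15 and scipy 1.17.1 were used.

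The members, the lists of other genes and the markers were chosen with earlier results of these data known. All 9 members are named; of the other lists up to 4 genes with the most UMIs, and per member the 2 genes with the most similar levels, of which only those that were so with and without classes of under 20 cells are given. Bulk RNA files name transcripts without genes and were not used here, nor were the GC-1 libraries. Protein sequences, planned for description, were not used here.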

Additional observations from a re-analysis of the deposited data

How the results depend on the processing

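No paired analysis was possible because each genotype has 1 single-cell library. The alternatives were minimums of 2000, 1000 or 5000 UMIs, a filter on genes and mitochondrial UMIs, doublets left out, 2 other scales, free RNA subtracted, a wider gap of scores, named clusters and a background of at least 10 UMIs. Subtraction of empty-droplet RNA and equal weight to the spermatid bins were chosen after seeing the data. Fsip2 was lower by over 1.5-fold in the 9 alternatives for all cells (-0.89 to -0.70), in 11 of 11 for late spermatocytes (-0.87 to -0.78) and in 12 of 12 for round spermatids (-0.84 to -0.66). Akap4 over all cells was past it in 8 of 9 (-0.77 to -0.58), and in elongating spermatids in 4 of 12 (-0.68 to -0.37).

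The number of members past 1.5-fold in either direction differed by over 1.5 times in these cases, and the cause was not tested. The share of all genes past 1.5-fold was not computed for them, so these counts cannot be set against one. Over all cells the number of members was 1 at 1000 UMIs, a minimum that admits the control's empty droplets, 59.7% of its barcodes. In spermatogonia-like cells it was 3 at 5000 UMIs, 5 without doublets, 4 with free RNA subtracted, 3 with empty-droplet RNA subtracted and 2 with the wider gap. In early spermatocyte-like cells it was 2 with free RNA subtracted and 0 in named clusters, where Odf3 reversed to 0.35. In late spermatocyte-like cells it was 6 at 1000 UMIs and 1 without doublets, with empty-droplet RNA subtracted or in named clusters. In round spermatid-like cells it was 2 with free RNA subtracted or in named clusters. In elongating spermatid-like cells it was 2 at 5000 UMIs, with free RNA or empty-droplet RNA subtracted, or with bins weighted equally. With thinned cells, as without thinning, the share of cells with a UMI was higher in control elongating spermatid-like than in Leydig-like cells with intervals that did not meet for 8 of 9 members. Fsip2 was the exception, at 28.8% against 26.7% thinned. With the lower background minimum, 8.4% of genes were lower and 4.44% higher over all cells. By class, from spermatogonia to elongating spermatids, 15.2%, 18.5%, 9.88%, 12.6% and 12.3% of genes were then lower. Those higher were 7.71%, 7.35%, 4.15%, 4.56% and 3.57%. Free RNA profiled in barcodes of at most 50 UMIs would make up 49.9% and 48.5% of the UMIs of Leydig-like cells; genes it took to 0 got no value. Spermatogonia-like classes are limited by their number of cells, 187 and 164, with 57 and 42 Odf3 UMIs.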
